A study of Mus musculus with 13 samples.

Results

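Ptch1 medulloblastomas were compared with the embryonic dorsal brainstem (DBS) across all measured genes. The comparison used 10 of the 13 arrays given for the series, chosen by the labels' source names: 6 primary tumours and 4 DBS samples at E16.5. The tumours carried the genotype Ptch1(+/-) and arose after inactivation of Ptch1, and the DBS samples came from wild-type mice. All of the tissue was untreated, and each sample came from a different mouse. The labels give neither an age for the tumour mice nor a strain, sex, litter or batch, so age, tissue, batch and group cannot be told apart, and p-values measure the spread between these mice. The 3 remaining arrays, of wild-type granule neuron precursors from postnatal day 7 (GNPC), shared the estimate of the spread and serve as a second normal reference for single genes. A Ctnnb1 tumour group was not analysed here.

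Ptch1 is the membrane receptor that keeps Smoothened silent until a hedgehog ligand binds, and loss of that restraint lets Gli transcription factors act without ligand. In the postnatal cerebellum the pathway drives division of granule neuron precursors, the cells from which hedgehog medulloblastomas are known to grow. The dorsal brainstem is another derivative of the dorsal hindbrain. Its progenitors give rise to sensory relay neurons and precerebellar neurons, and it is the tissue in which Wnt-driven medulloblastomas have been described to begin. By late gestation most of its cells are postmitotic neurons that are making axons and synapses.

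Ptch1 itself was 3454, 7631 and 11575 intensity units at the lowest, the median and the highest of the tumours. In DBS it was 5569, 6134, 5890 and 5916. The ranges overlapped and the gene was not called (log2 difference 0.31 ± 0.24 SE, limma adjusted p = 0.257). Which region of Ptch1 was inactivated is not in the labels, so this probe set does not check the genotype. The cerebellar homeobox gene En2 was 1209 to 1718 in tumours and 17.1 to 33.9 in DBS. Meis2, high in every DBS sample, was near background in every tumour. Both genes were picked from the largest differences of this comparison, which required separated groups. Their separation is therefore no independent check of the tissue labels. Arrays were scaled alike, with medians of 91.3 to 117.5 over the 13 arrays. Pearson correlations of log2 values between arrays were 0.945 to 0.972 among tumours, 0.969 to 0.986 among DBS samples and 0.682 to 0.74 between them. Numbers of samples such as tumour 2 or DBS 1 follow the order of deposition and pair nothing.

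A gene was called when its adjusted p was under 0.05 and its values differed at least 2-fold on the log2(intensity + 18) scale, on which dim genes appear to change less than they did. Calls covered 36.3% of the 12270 genes tested, 15.5% higher and 20.9% lower in tumours. These shares are the background for every count of genes given here. The 6 tumour values lay wholly above or below the 4 DBS values for 56.1% of all genes, whether called or not. Large differences were more often falls: 10 genes were called at least 32-fold higher and 65 at least 32-fold lower. For 41 called genes another probe set of the same gene was called the other way. The median SD on the log2 scale was 0.27 among tumours and 0.21 among DBS samples. In bulk tissue, fewer cells of a type and less RNA per cell cannot be told apart, and this holds for every group of genes described. When arrays were instead scaled to equal medians, the median gene went from 0.0 to 0.12, so small differences are relative to the scaling.

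**Figure D1:**
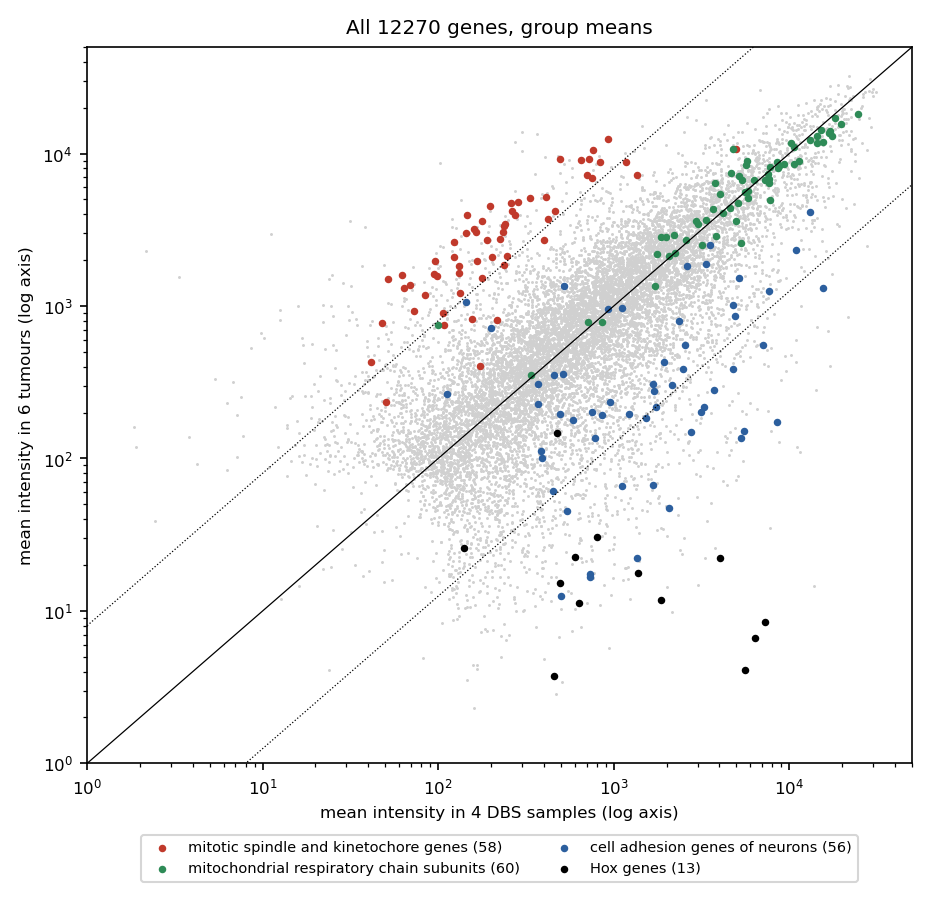
Mean intensity of each of the 12270 genes in 6 tumours (vertical) against 4 DBS samples (horizontal), both on log axes; the solid line marks equality and the dotted lines 8-fold. Mitosis genes (red) lie above the line, respiratory chain genes (green) along it, and neuronal adhesion genes (blue) and Hox genes (black) mostly below it. For the Hox genes the filter on low values largely fixed this direction.

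DNA replication and mitosis genes were higher in the tumours almost throughout. Of 55 tested genes for licensing and running the replication fork, 51 rose, none fell and 4 were not called, with a median log2 difference of 2.37 against 0.0 over all genes. Of 58 tested genes of the mitotic spindle and kinetochore, all 58 rose, with a median of 3.62. Of those 58, 8 exceeded the median of their array in 3 or more tumours and in no DBS sample, so the tumours alone sufficed for them to enter the test. Counts of genes above the median only in tumours or only in DBS are meant in this way throughout. They leave aside the GNPC arrays, which also counted toward the filter. Some lists given without such a count also held such genes. Left-out samples moved the replication count between 49 and 52 and left the mitosis count at 58. Promoters of 4 of these risers are printed here to show the short motifs that were counted in the replication and mitosis risers; the 4 were chosen after their values were seen. Each stretch is the 160 bases before the RefSeq start site, 5′ to 3′ on the strand of the gene, on build GRCm38.p6. Capitals mark letters of an E2F site (TTTCGCGC, TTTGGCGC or TTCCCGCC), of the cell cycle homology region, CHR (TTTGAA), or of a CCAAT box (CCAAT), on either strand.
Mcm6, chr1:128359706-128359865, minus strand: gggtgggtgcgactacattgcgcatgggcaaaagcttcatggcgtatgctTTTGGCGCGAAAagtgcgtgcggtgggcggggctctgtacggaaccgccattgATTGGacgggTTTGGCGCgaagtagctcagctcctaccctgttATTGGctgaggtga
Prim1, chr10:128015055-128015214, plus strand: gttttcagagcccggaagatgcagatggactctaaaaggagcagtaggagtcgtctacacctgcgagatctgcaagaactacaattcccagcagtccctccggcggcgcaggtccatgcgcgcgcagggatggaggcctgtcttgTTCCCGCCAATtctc
Cdc20, chr4:118437344-118437503, minus strand: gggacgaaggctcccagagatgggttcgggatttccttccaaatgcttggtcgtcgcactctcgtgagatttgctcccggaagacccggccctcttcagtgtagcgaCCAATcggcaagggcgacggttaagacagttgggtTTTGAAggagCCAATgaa
Cdk1, chr10:69352913-69353072, minus strand: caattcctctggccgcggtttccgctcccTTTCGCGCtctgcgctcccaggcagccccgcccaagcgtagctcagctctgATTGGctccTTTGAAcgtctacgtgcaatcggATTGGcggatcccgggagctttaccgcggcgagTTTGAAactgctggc

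Mcm6, a subunit of the replicative helicase, has 3 E2F matches, of which a pair on opposite strands overlap to read TTTGGCGCGAAA, and 2 CCAAT boxes in reverse. Prim1, the catalytic subunit of DNA primase, has 1 E2F match that shares its last letters with a CCAAT box. Cdc20, the activator of the anaphase-promoting complex, has a CHR between a pair of CCAAT boxes and no E2F match. Cdk1, the kinase that starts mitosis, has all 3 motifs. Over the 300 bases held for each promoter (250 before the start and 50 after it), an E2F match occurred in 16 of the 42 replication risers with a sequence (38.1%) and in 5 of 49 mitosis risers (10.2%). A CHR occurred in 7 (16.7%) and 34 (69.4%) of them, and a CCAAT box in 26 (61.9%) and 36 (73.5%). Over the 27025 genes with a promoter in the table the shares were 3.39%, 20.2% and 41.1%, and over the 9932 tested genes with a promoter they were 6.31%, 13.8% and 42.9%. These are matches of letters, with no measurement of binding.

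Mcm6 was 6967, 7622 and 10827 at the lowest, the median and the highest tumour, against 532.7, 527, 662.2 and 590.7 in DBS. The log2 difference was 3.74 ± 0.16 SE (limma adjusted p = 6.28e-11). Prim1 was 5576 to 7291 in tumours and 1097, 883.8, 1252 and 1114 in DBS, a rise of 2.52. Every tumour lay above every DBS sample for both genes, by a wide margin. Cdk1 was 4030.2 to 6059.7 in tumours (median 5201) against 322, 241.3, 348.4 and 417.7 in DBS, a 14.8-fold rise. Cdc20 was 8528 to 12040.4 (median 11060) against 627.4, 770.2, 740.1 and 896.2, 13.6-fold higher. In the GNPC samples these 4 genes had means between the tumour and the DBS means: 2750.0, 2346, 1820.0 and 5824.

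The replication genes with the largest rises were Cdc6, which loads the helicase onto origins, the helicase subunit Mcm3 and the topoisomerase Top2a. Cdc6 went from 74.1, 75.6, 106.5 and 98.5 in DBS to 1470.3 to 2177 in tumours, 16.8-fold. Mcm3 rose by 3.92 and Top2a by 3.77 on the log2 scale. Among mitosis genes the largest rises were those of the spindle checkpoint kinase Bub1b (24.7-fold), the cytokinesis motor Kif20a (21.7-fold) and the centromeric histone Cenpa (21.4-fold). Bub1b was 166.8, 126.9, 108.7 and 177.4 in DBS and 3330 to 4769 in tumours, with no overlap. Outside the lists, Dlgap5, a microtubule-binding protein of the spindle, and Esco2, an acetyltransferase for sister chromatid cohesion, rose by 4.98 and 4.80. Both were at or below 46.1 in every DBS sample and at or above 725 in every tumour.

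Genes that take cells from G1 into S phase moved with them. Of 32 tested, 23 rose, none fell and 9 were not called (median log2 difference 2.05). E2f1, the activating transcription factor at this step, was 930.2, 654.1, 991.4, 853.2, 842.2 and 887.2 in tumours 1 to 6 and 13.7, 59.4, 14.5 and 13.7 in DBS, a rise of 4.45. E2f8, which represses E2F targets later in the cycle, also rose, by 4.38. Nucleotide synthesis had 19 risers among 27, no falls and 8 not called. Its largest rises were in thymidine kinase Tk1 (27.9-fold), the ribonucleotide reductase subunit Rrm2 (10.4-fold) and the mitochondrial folate enzyme Shmt2 (8.66-fold). Tk1 was 33.5 to 58.9 in DBS and 1320.7 to 2180.0 in tumours, well apart.

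Of 48 DNA repair and checkpoint genes, 36 rose, 1 fell and 11 were not called, with a median of 1.57. Of the 48, 9 exceeded their array's median only in the tumours. The glycosylase Neil3 rose by 3.80 and the exonuclease Exo1 by 3.67. The 1 fall was that of Trp53bp1, a double-strand break protein (-1.26), and it rests on the probe set: the mean over its probe sets was 0.56.

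Brakes on the cycle did not move together. Of 13 cyclin kinase inhibitors and tumour suppressors, 3 rose, 2 fell and 8 were not called, and 1 fell without DBS 2. Cdkn1b, the p27 inhibitor that promotes cell cycle exit, rose from 206.7, 292.4, 245.5 and 265.6 in DBS to 2241 to 3491 in tumours, 9.87-fold. It was high in all 6 tumours. Cdkn1c, the imprinted p57 inhibitor, fell by 2.43, from 3585, 3089, 3887 and 3699. Its tumour values were 494, 704.2, 2833, 275.3, 263 and 943.4, so tumour 3 came close to the DBS range without entering it.

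**Figure D2:**
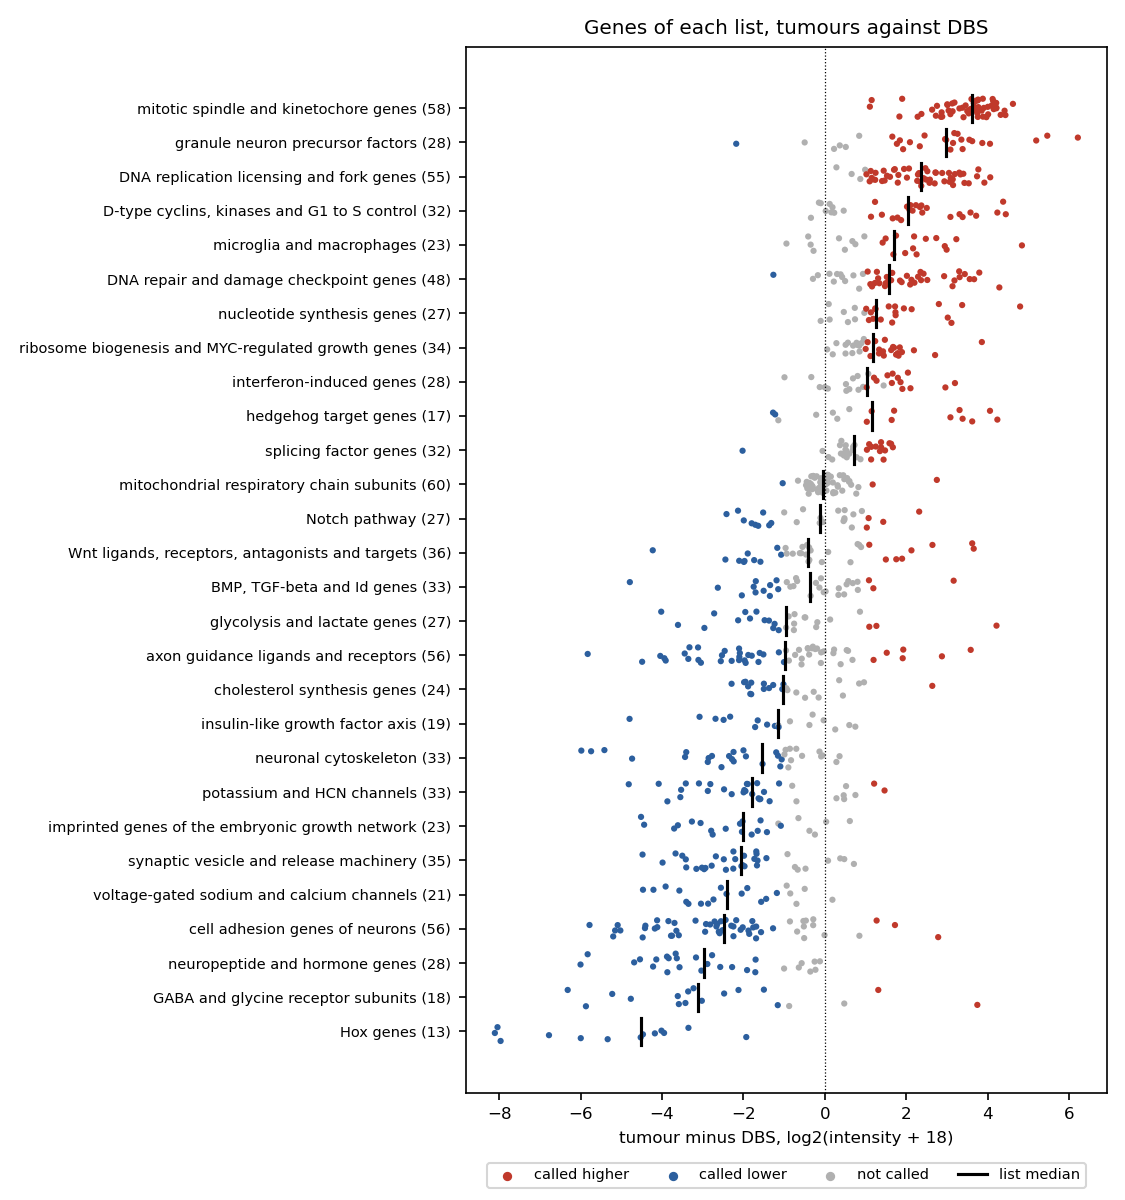
Log2 difference (tumour minus DBS, horizontal axis) of every tested gene in 28 gene lists, with the number tested in parentheses and the list median as a black bar; red and blue points were called higher and lower, grey points were not called. Mitosis genes lie wholly to the right (median 3.62), respiratory chain genes around 0 (median -0.05) and Hox genes wholly to the left (median -4.52). Of the 13 Hox genes, 12 exceeded their array's median only in DBS, so the filter largely fixed their direction.

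Growth and metabolism genes changed in part. Of 34 ribosome biogenesis and Myc-regulated growth genes, 20 rose, none fell and 14 were not called (median 1.18). The largest rise was in Eif4ebp1, the translation inhibitor controlled by mTOR, with 87.3, 81.2, 121.9 and 106.4 in DBS and 1094 to 2611 in tumours, a 14.5-fold rise. Its GNPC mean was 107.7, which did not differ detectably from DBS (log2 difference 0.11, adjusted p = 0.778). Polr1c, a subunit shared by RNA polymerases I and III, rose by 2.71. Of 32 splicing factor genes, 13 rose, 1 fell and 18 were not called. U2af1, which recognises the 3′ splice site, rose by 1.63, and the fall was Snrpn, an imprinted gene expressed in neurons (-2.02).

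Respiratory chain genes showed little difference. Of 60 subunits tested, 2 rose, 1 fell and 57 were not called, with a median of -0.05. The risers were 2 subunits of complex I, Ndufs5 (2.75) and Ndufa2 (1.18). Ndufa2 was 5381, 4757, 4986 and 3989 in DBS and 10083 to 11238 in tumours, a small but well separated difference.

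Glycolysis genes were more often lower: 13 of 27 fell, 3 rose and 11 were not called. Without probe sets that may bind several transcripts, 7 fell. The hexokinases went opposite ways. Hk1, the general brain form, was 2707, 3969, 2292 and 3453 in DBS and fell to 304.4 to 875.4 in tumours (-2.72 ± 0.25 SE, adjusted p = 2.18e-07). Hk2, the form typical of proliferating tissue, rose from 355.5, 381.6, 416.8 and 278 to 3602 to 10898 (4.22 ± 0.24 SE, adjusted p = 1.59e-09). For each enzyme the 6 tumours and 4 DBS samples did not overlap. The neuronal enolase Eno2 fell by 4.02, and the lactate transporter Slc16a1 rose by 1.09.

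Cholesterol synthesis genes were lower as well, with 13 of 24 falling, 1 rising and 10 not called (median -1.03). The sterol reductase Tm7sf2 fell by 2.29, the kinase Pmvk fell by 1.98 and the desaturase Sc5d fell by 1.95. Hmgcs1, which makes HMG-CoA, was 22312, 27978, 26023 and 23612 in DBS and 4037 to 8848 in tumours. The riser was Srebf1, the transcription factor that drives lipid synthesis, from 1090.4, 1075, 1021 and 1241 to 4891 to 9284. No tumour overlapped DBS for either gene.

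Among 30 DNA methylation and Polycomb genes, 11 rose, 2 fell and 17 were not called. Ezh2, the methyltransferase of Polycomb repressive complex 2, was 853.6, 937.7, 1235 and 828 in DBS and 6203 to 9528 in tumours, 8.39-fold higher. Uhrf1, which brings maintenance methylation to new DNA, rose by 3.56 and Bmi1, of Polycomb repressive complex 1, by 1.70. Dnmt3a, the de novo methyltransferase, fell instead, from 4495 to 5375 in DBS to 1019 to 1963 in tumours (-1.71).

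The BAF remodelling complex exchanges subunits when progenitors become neurons. Of its 5 progenitor subunits 4 rose and 1 was not called, and of 7 neuronal subunits 4 fell, none rose and 3 were not called. Actl6a, the progenitor actin-like subunit, was 706.8, 598.6, 611.1 and 596.4 in DBS and 2852 to 4046 in tumours, a rise of 2.44. Its neuronal counterpart Actl6b fell by 1.94, from 208.3, 276.8, 176.4 and 233 to 3.2 to 83.1. The neuronal subunits Dpf1 and Ss18l1 fell by 1.97 and 1.86. Smarcd3 fell by 2.03, although tumour 3, at 1727, lay within the DBS range of 1293 to 2535.

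Stem cell and radial glia genes split: of 22, 7 rose, 8 fell and 7 were not called. Pax6, a factor of granule precursors as well as radial glia, rose from 207.9, 200.3, 243.5 and 272.8 to 1298 to 4225. The matrix protein Tnc fell by 2.69 and the transcription factor Sox21 by 2.24. Among 16 Sox genes 5 rose and 7 fell. Sox18, known from endothelium, was 3004 to 3581 in the 6 tumours and 275.4, 203.8, 230.7 and 254.3 in DBS, 13.1-fold higher, with little spread in either group. Sox11 was 14241 to 17253 in 5 tumours but 567.5 in tumour 4, near the DBS values of 255.8 to 499.1. Of its 6 probe sets 3 were called higher and 1 lower, so its direction depends on the probe set.

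Genes of position along the hindbrain were examined next. Of 33 Hox genes on the array 13 passed the filter, 12 of them above their array's median only in DBS. The 13 that passed were called lower, a direction that the filter largely fixed. The other 20 stayed below the filter, with group means up to 451. Hoxa2, which sets the most anterior Hox territory, was 501.5, 544.5, 386.9 and 460.6 in DBS and at most 24.6 in 5 tumours, but 827 in tumour 1, above every DBS sample. Meis2, a TALE cofactor of Hox proteins, was 7820.4, 9059, 6227 and 7989 in DBS and 9.1 to 60.2 in tumours. This difference of -7.29 ± 0.45 SE (adjusted p = 2.64e-09) appeared in all 4 of its probe sets, from -7.29 to -4.38. Of 7 TALE genes only Meis2 and Pknox2 (-2.02) were called.

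Among 24 transcription factors of brainstem neurons, 11 fell, 3 rose and 10 were not called. Of the 24, 5 exceeded their array's median only in DBS. Skor1, a corepressor of dorsal interneurons, was 6707, 9496, 7049.7 and 6726 in DBS and 30.6 to 464.9 in 5 tumours, with 2296 in tumour 6. Lmx1b, needed for dorsal horn and serotonergic neurons, fell from 357.5 to 458.2 in DBS to at most 23.1 in tumours. The 3 risers were the zinc-finger factor St18 (3.06), the LIM factor Lhx1 (1.66) and Prdm8 (1.49), all well above the DBS range in every tumour.

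Granule neuron precursor factors were the counterpart. Of 28 tested, 22 rose, 1 fell and 5 were not called, with a median of 2.97, and 4 of the 28 exceeded their array's median only in tumours. Insm1, a zinc-finger factor that promotes the generation of basal progenitors, was 208.4, 281, 280.1 and 435.4 in DBS and 11702 to 15563 in tumours, 44.3-fold higher. Barhl1, the homeobox factor of migrating granule precursors, rose 14.6-fold, from 83.8 to 151.5 in DBS to 1067 to 3049. Both were also higher in GNPC than in DBS (4.51 and 2.89 on the log2 scale, adjusted p = 2.87e-09 and 4.77e-06). Zic1 was abundant in both tissues: 12781, 18082, 14558 and 15920 in DBS against 18250 to 21765 in tumours, a difference of 0.37 that is below the 2-fold minimum.

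Genes of differentiating granule neurons had no common direction: 4 of 19 rose, 8 fell and 7 were not called. Of the 19, 2 exceeded their array's median only in tumours. Gabra6, which encodes a GABA-A subunit made by mature granule cells, was 6.8, 4620.9, 369.7, 724.3, 952.4 and 1811 in tumours 1 to 6 and 21.3 to 34.7 in DBS. Cbln3, a synaptic organiser of granule cells, was 73.6, 3576, 292.6, 509.5, 841.4 and 1480.1 in tumours and 43.8 to 88.1 in DBS. Both rises (3.75 and 3.00) were absent in tumour 1, which did not exceed the DBS range for either gene, and were greatest in tumour 2. The potassium channel Kcnd2 fell by 3.41, the migration receptor Astn1 fell by 2.46 and the microtubule protein Stmn2 fell by 1.94.

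**Figure D3:**
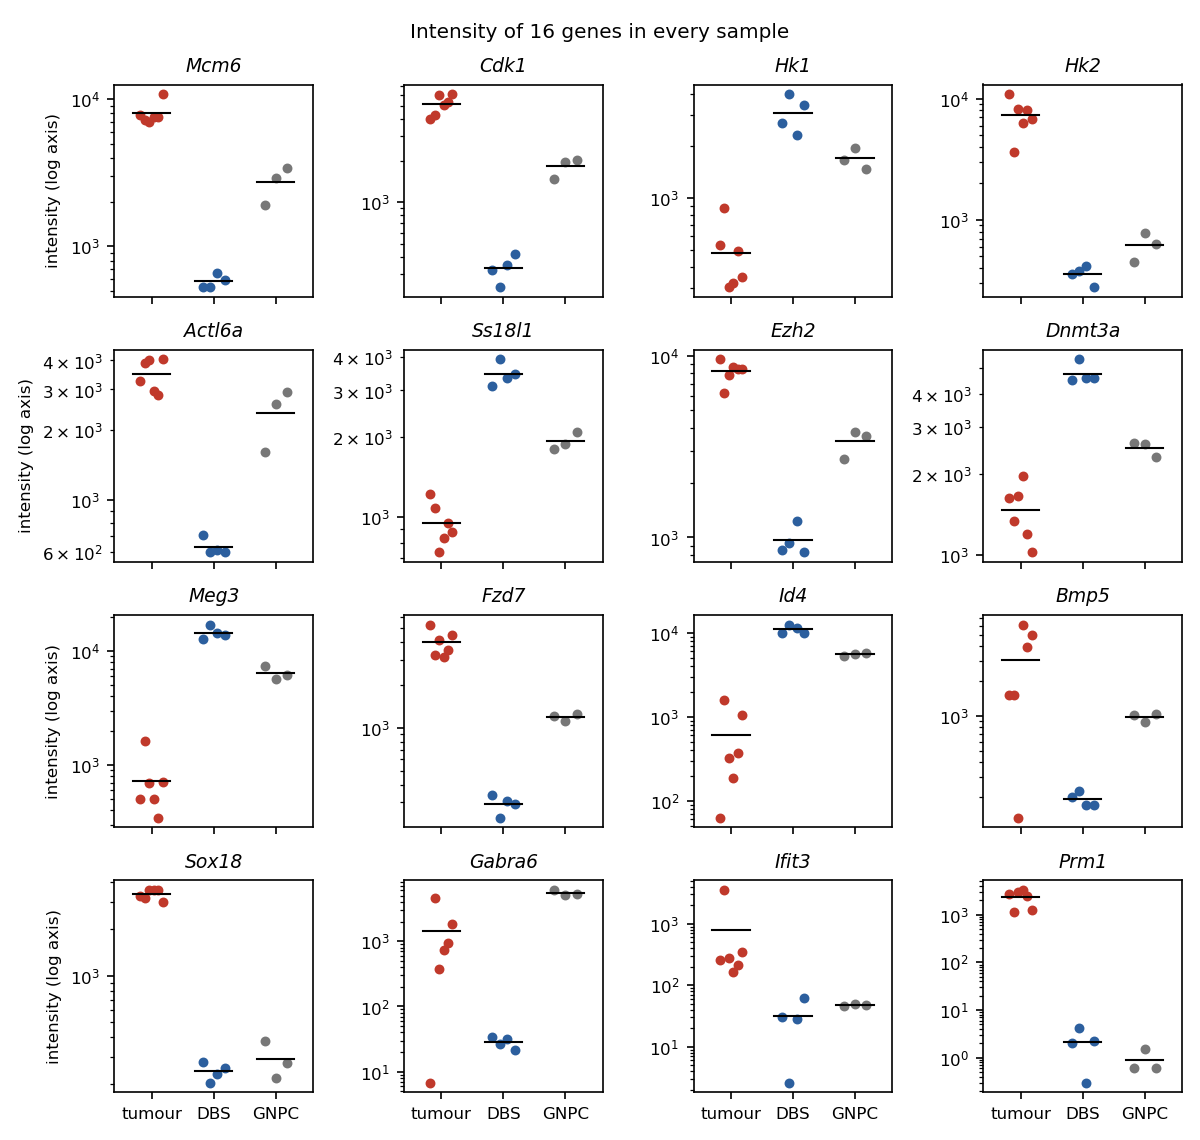
Intensity (vertical, log axis) of 16 genes in every tumour (red), DBS sample (blue) and GNPC sample (grey), with black bars at the group means. Mcm6, Cdk1, Hk2, Ezh2, Fzd7, Sox18 and Prm1 are higher in all 6 tumours than in any DBS sample, Hk1, Dnmt3a, Ss18l1, Meg3 and Id4 are lower, and Gabra6, Bmp5 and Ifit3 each have 1 tumour far from the rest.

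Hedgehog pathway components and targets were listed separately, with Gli1, Ptch1 and Hhip in both lists, and the lists were not tested against each other. Of 19 ligands, receptors and transducers, 6 rose and 4 fell (median -0.14), while of 17 target genes 10 rose, 2 fell and 5 were not called (median 1.15). Target risers also stand in the G1 to S, mitosis, Polycomb, Notch, Wnt and granule precursor lists. Among the components, the risers Gli1, Gli2 and Boc also stand in the granule precursor list. Counts of these lists are thus not independent of each other. Gli2, the main activating Gli factor, was 306.8, 345.4, 335.2 and 340.4 in DBS and 2686 to 3713 in tumours, an 8.90-fold rise with no overlap. Scube3, a secreted partner of the ligand, fell by 2.51 and the co-receptor Cdon by 2.19.

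In the Notch pathway 4 of 27 genes rose, about the background share, 9 fell and 14 were not called. Only in DBS did 3 of the 27 exceed their array's median. Without tumour 3, 2 rose. The effector Hey1 was 1001.7, 1134, 1094 and 1135 in DBS and 3251 to 9721 in tumours, a rise of 2.32. Its relative Hey2 fell by 1.99 and the ligand Jag2 by 2.41. The fringe enzyme Mfng, which modifies Notch receptors, rose by 1.44.

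The Wnt pathway list had 8 risers, 10 falls and 18 genes not called among 36. Above their array's median only in DBS were 3 of the 36, and only in tumours 1. The receptor Fzd7 rose from 339.2, 234.9, 307.3 and 290.7 to 3112 to 5285 (12.7-fold), and the co-receptor Ror2 rose 6.26-fold, to 491.1 to 1133 in tumours. Rspo2, a secreted enhancer of Wnt signalling, fell from 620.9, 826.7, 611 and 732.4 to at most 37.8 in tumours. The ligand Wnt5a and the antagonist Frzb fell by 2.44 and 2.10. Ror2 thus rose in tumours while Wnt5a, one of its ligands, was lower in every tumour than in any DBS sample.

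Of 33 BMP, TGF-beta and Id genes, 3 rose, 11 fell and 19 were not called, and 4 of the 33 exceeded their array's median only in DBS. Id4, an inhibitor of proneural factors, was 10022, 12564, 11527 and 9851 in DBS and 63.2, 1606, 326.4, 187.3, 370.8 and 1050.2 in tumours, a difference of -4.79 on the log2 scale. The ligand Bmp5 was 1520.2, 1528, 133.8, 6163, 3952 and 5036 in tumours and 170.7 to 227.1 in DBS. Its rise of 3.17 held in 5 tumours, and tumour 3 lay below the DBS range. The ligand Bmp6 fell by 2.63, while the shared signal transducer Smad4 rose by 1.20.

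FGF pathway genes were called higher in 3 and lower in 8 of 22. Of the 22, 2 exceeded their array's median only in tumours and 1 only in DBS. Fgf13 and Fgf12, intracellular members that bind sodium channels, had differences of -2.92 and -3.25. Fgf13 was 11171 to 12729 in DBS and 999.9 to 3024 in tumours. Fgf5, a secreted ligand, rose from 6.8 to 28.9 in DBS to 82.7 to 700.3. Of 16 retinoic acid genes 6 fell and 2 rose, and 3 of the 16 exceeded their array's median only in DBS. Crabp1, which binds retinoic acid in the cytoplasm, fell by 4.08, and Cyp26b1, which degrades it, by 2.52. The risers were the plasma carrier Rbp4 (2.74) and the aldehyde dehydrogenase Aldh1a1 (2.46), with 307.7 to 3977 and 317 to 2503 in tumours.

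Among insulin-like growth factor genes and imprinted genes every call was a fall. Of 19 genes of the insulin-like growth factor axis 11 fell and 8 were not called (7 fell without probe sets that may bind several transcripts), and of 23 imprinted growth genes 17 fell and 6 were not called (median -2.02). Only in DBS did 3 of those 19 and 2 of those 23 exceed their array's median. Igf1, a growth factor for precursors and neurons, was 2224, 3182, 1887 and 2490 in DBS and 213.4 to 390 in tumours. Its log2 difference was -3.08, but 1 of its 4 probe sets was called higher. The docking protein Irs4 fell by 4.80, from 621.4 to 1016 in DBS to at most 22.6. Igf2, an imprinted ligand, was 331.6 to 981.3 in 5 tumours and 5472 in tumour 3 against 1279 to 2944 in DBS, and was not called (-1.14, adjusted p = 0.0751). Without tumour 3 its difference was -1.66 and passed (adjusted p = 0.000113).

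Meg3, an imprinted noncoding RNA, was 12606, 17052, 14318 and 13691 in DBS and 502.3, 1628, 691.2, 501.7, 345.9 and 713.9 in tumours. All 11 of its probe sets fell, by -6.20 to -3.70 on the log2 scale. Ndn, an imprinted protein of postmitotic neurons, fell by 3.61, and Asb4 fell by 4.51 to at most 23.1 in any tumour. Grb10, an adaptor that restrains insulin receptor signalling, fell by 3.70 with 103.3 to 599.3 in 5 tumours and 2186 in tumour 3. Tumour 3 was thus the highest tumour for Grb10, Igf2 and Cdkn1c.

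Falls outnumbered rises in each list of neuronal machinery. Of 35 synaptic vesicle and release genes 27 fell and none rose (median -2.05), of 24 glutamate receptor subunits 16 fell and none rose, and of 33 neuronal cytoskeleton genes 21 fell and none rose. Among the 24 glutamate receptor subunits, 3 exceeded their array's median only in DBS. Among 18 GABA and glycine receptor genes 14 fell and 2 rose, with a median of -3.12, and leaving out most single samples left 1 rise. Of these 18, 5 exceeded their array's median only in DBS. Of 21 sodium and calcium channel genes 16 fell and none rose, and of 33 potassium and HCN channel genes 24 fell and 2 rose. Only in DBS did 4 of those 21 and 5 of those 33 exceed their array's median. The potassium channel Kcnq5 was called higher, but other probe sets of it were called lower (-1.14 and -1.53). With the mean of probe sets 1 potassium or HCN channel gene rose.

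The metabotropic glutamate receptor Grm5 was 4581, 5179, 5327 and 4785 in DBS and 68.1 to 205.6 in tumours, 35.4-fold lower. Gabra5, a GABA-A receptor subunit of embryonic neurons, was 1705 to 2370.3 in DBS and at most 22.6 in tumours, and the glycine receptor subunit Glra2 fell by 5.87. Slc12a5 (KCC2), the transporter that lowers neuronal chloride, was 14489, 19695, 16648 and 15577 in DBS and 99.7 to 2237 in tumours, a difference of -5.22. Its counterpart Slc12a2 (NKCC1), which raises chloride, was 2215 to 2426 in DBS and 2947 to 3788 in tumours. That difference of 0.48 was below the 2-fold minimum, although every tumour exceeded every DBS sample.

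Voltage-gated channels with the largest falls were the sodium channel Scn9a (-4.47), the calcium channel subunit Cacna2d2 (-4.21) and the potassium channels Kcnc2 (-4.82) and Kcna4 (-4.08). Kcnk1, a leak channel, rose instead, from 825.9 to 1001 in DBS to 1491 to 3698. The vesicle proteins Sncg and Syn3 fell by 4.48 and 3.67. Of 28 neuropeptide genes tested 21 fell and 7 were not called, 11 of the 28 having exceeded their array's median only in DBS. Resp18, a secretory granule protein, was 3067, 1874, 2604 and 2273 in DBS and 1.7 to 58 in tumours. Crh, corticotropin-releasing hormone, was at most 29.3 in 5 tumours and 546.9 in tumour 1, against 895.6 to 1302 in DBS.

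Transmitter genes had 15 falls, 1 rise and 4 genes not called among 20. Of the 20, 6 exceeded their array's median only in DBS, which sufficed for them to enter the test. Gad1, which makes GABA, was 134.3, 3038, 425.5, 384.6, 512.6 and 839.1 in tumours and 7365 to 8905 in DBS. Neuronal RNA-binding proteins had 11 falls and 13 genes not called among 24, with the splicing regulator Rbfox1 at 877.1 to 1879 in tumours against 7427 to 10204 in DBS (-2.61). Cpeb3, a regulator of dendritic translation, fell by 2.71.

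Axon guidance and neuronal adhesion genes held members called in both directions. Of 56 guidance genes 28 fell, 6 rose and 22 were not called, and of 56 neuronal adhesion genes 43 fell, 3 rose and 10 were not called (median -2.47), 7 of the latter 56 having exceeded their array's median only in DBS. Epha5, an ephrin receptor, was 4595, 4980.2, 4105 and 3963 in DBS and 36.8 to 156.4 in tumours, 56.7-fold lower. The repellent Slit2 and the receptor Epha4 had differences of -4.49 and -4.04. Draxin, a secreted repellent that binds the receptor Dcc, rose from 651, 356.2, 629.1 and 682.8 to 5865 to 8313, and the membrane semaphorin Sema7a from 588.6 to 743.4 to 3585 to 6191. Dcc, the netrin receptor, rose by 1.92, with every tumour at or above 3807 and every DBS sample at or below 1283.

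Pcdh8, an activity-regulated protocadherin, was 7029, 10828, 7036 and 8991 in DBS and 48.5 to 487.9 in tumours, a difference of -5.78. Cdh20, a type II cadherin, went the other way, from 74.5 to 176.9 to 842.8 to 1237 (2.79). Of 13 neurotrophin and GDNF family genes 7 fell and none rose. Ntrk2, the BDNF receptor TrkB, fell by 4.32, from 4044 to 5143 in DBS to 99.5 to 376 in tumours. The GDNF receptor Ret and the cytokine receptor Lifr fell by 2.79 and 2.66.

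Stress and survival genes were mixed. Of 22 immediate early genes 6 rose, 3 fell and 13 were not called, with Ier5 rising from 396.4 to 658.6 in DBS to 5116 to 8135. Of 20 heat shock and unfolded protein genes 4 fell, a share close to the 20.9% of all genes, and none rose. Without probe sets that may bind several transcripts, 2 fell. Hspa1b, the inducible HSP70, was 6136, 8178, 4445 and 7414 in DBS and 90.5 to 308.8 in tumours, and its near-identical neighbour Hspa1a fell by 2.98. These paralogs cannot be fully separated by the array. In the GNPC samples Hspa1b had a mean of 1008.

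Of 24 p53 target genes 6 rose, 3 fell and 15 were not called, and 4 of the 24 exceeded their array's median only in tumours. Eda2r, a death receptor of the TNF family, was 14 to 48.7 in DBS and 438 to 1860 in tumours, with the lowest value in tumour 2, well above DBS in all 6. Gadd45a, a DNA damage response gene, rose by 2.17 and the kinase Plk2 fell by 2.57. Among 22 Bcl2 family and caspase genes 5 rose and 1 fell, and 2 rose without probe sets that may bind several transcripts. Casp2 rose from 870.2 to 1131 in DBS to 4012 to 5076, and Bok, a Bcl2 relative that permeabilises mitochondria, from 683.1 to 1075 to 2487 to 3383. Bok stood at a mean of 865.0 in GNPC, close to DBS (log2 difference 0.03, adjusted p = 0.905).

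Interferon-induced genes had 13 risers among 28, no falls and 15 genes not called, and 8 of the 28 exceeded their array's median only in tumours. Tumour 2 stood apart: the mean of the list over DBS was 2.64 on the log2 scale there and 0.53 to 1.16 in the other tumours, and without tumour 2 the list had 11 risers and 1 fall, that of Isg20, a nuclease induced by interferon. Without probe sets that may bind several transcripts it had 7 risers. Ifit3, an antiviral effector, was 255.1, 3583, 273, 164.6, 210.2 and 353.7 in tumours and 2.6 to 63.2 in DBS. Ifi27 and Ifitm3, also induced by interferon, rose by 2.97 and 2.11 and were highest in tumour 2. B2m, the light chain of MHC class I, was 2380 to 7721 in tumours and 800.2 to 1109 in DBS. The summed microglia and macrophage markers were also higher, at 13591 to 37941 in tumours against 9473 to 9980 in DBS, and their part in the interferon result was not tested.

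Microglia and macrophage markers rose in 14 of 23 cases, with none lower and 9 not called (median 1.69), and 4 of the 23 exceeded their array's median only in tumours. Without probe sets that may bind several transcripts, 9 rose. Cd68, a lysosomal protein of phagocytes, was 115.8, 92.9, 114.7 and 91 in DBS and 640.7 to 1818 in tumours. The MHC class II chain H2-Aa rose by 3.00 and the complement protein C1qb by 2.74. The lineage receptors Csf1r (-0.41), Cx3cr1 (-0.28) and P2ry12 (-0.35) were not called. Their tumour ranges of 1463 to 4344, 409.1 to 1009 and 63.1 to 394.9 overlapped those of DBS. Lyz2, a lysozyme of macrophages, rose by 4.85. Its close paralog Lyz1, which is not among these markers, rose by 5.28, though the paralogs are not independent measurements.

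Astrocyte and Bergmann glia markers had 7 falls and 2 rises among 17, and their sum was 20120 to 44710 in tumours against 57133 to 66645 in DBS. Gja1, the astrocyte gap junction protein, fell by 2.28 and Aldh1l1 fell by 2.55, while S100b rose by 2.09. The other marker called higher was Gfap. Fgfr3, a receptor of radial glia and astrocytes, fell from 1954, 1703, 1930.4 and 2220 to 213.7 to 431. Of 17 oligodendrocyte markers 4 fell and 13 were not called, a share close to that of all genes. The count was 2 without tumour 4, tumour 6 or DBS 3 and under quantile normalization. Cerebellar interneuron markers, which DBS inhibitory neurons share, had 11 falls and 1 rise among 12 (median -3.84), with the factor Tfap2b at 2105 to 2914 in DBS and 26.7 to 301.3 in tumours.

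Purkinje cell markers had 3 rises and 6 falls among 15. Their sum was 8616 to 29983 in tumours, highest in tumour 2, against 25295 to 27244 in DBS. Pvalb, a calcium buffer, was 157.3, 3697, 4008, 539.7, 1060 and 3982 in tumours and 68.3 to 130.4 in DBS. Calb1, another calcium buffer, was 32.5 to 1268 in 5 tumours and 3812 in tumour 2, against 2030 to 2497 in DBS. Tumour 2 thus lay above the DBS range for Calb1 and the other 5 tumours below it. Its call (-2.04, adjusted p = 0.0331) was lost without tumour 3, tumour 4 or any 1 DBS sample, with differences of -2.09 to -1.90 and adjusted p of 0.052 to 0.0674.

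Of 19 endothelial genes 6 fell, 2 rose and 11 were not called. Falls numbered 4 with arrays scaled to the same median, without tumour 5 or without DBS 1, and the summed markers overlapped, at 8459 to 11744 in tumours and 10232 to 12979 in DBS. The share that fell was thus not far from the 20.9% of all genes. Kdr, the VEGF receptor, fell from 1569.9, 1036.8, 1416 and 1119 to 148.9 to 340.1, whereas Sox18 and the transporter Slco1a4 (2.29) rose. Of 21 meningeal and fibroblast markers 11 were called lower and 10 were not called, with 4 of the 21 above their array's median only in DBS. The collagen chain Col1a2 was 2032 to 3368 in DBS and 244.6 to 465.5 in tumours, and the proteoglycan Ogn fell by 2.31. Ependymal markers had 5 falls among 6, with the cilium protein Rsph1 at -2.83, and 4 of the 6 exceeded their array's median only in DBS.

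Ttr, the transthyretin of the choroid plexus, was 27338, 606.2, 14511 and 27664 in DBS and 2.9 to 8675 in tumours. The choroid plexus list sum ranged from 1568 to 31352 in DBS, with DBS 2 the lowest, so differences of its members rest on uneven DBS samples. The list had 5 falls and 1 rise among 10, and 3 falls without DBS 1 or without probe sets that may bind several transcripts.

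**Figure D4:**
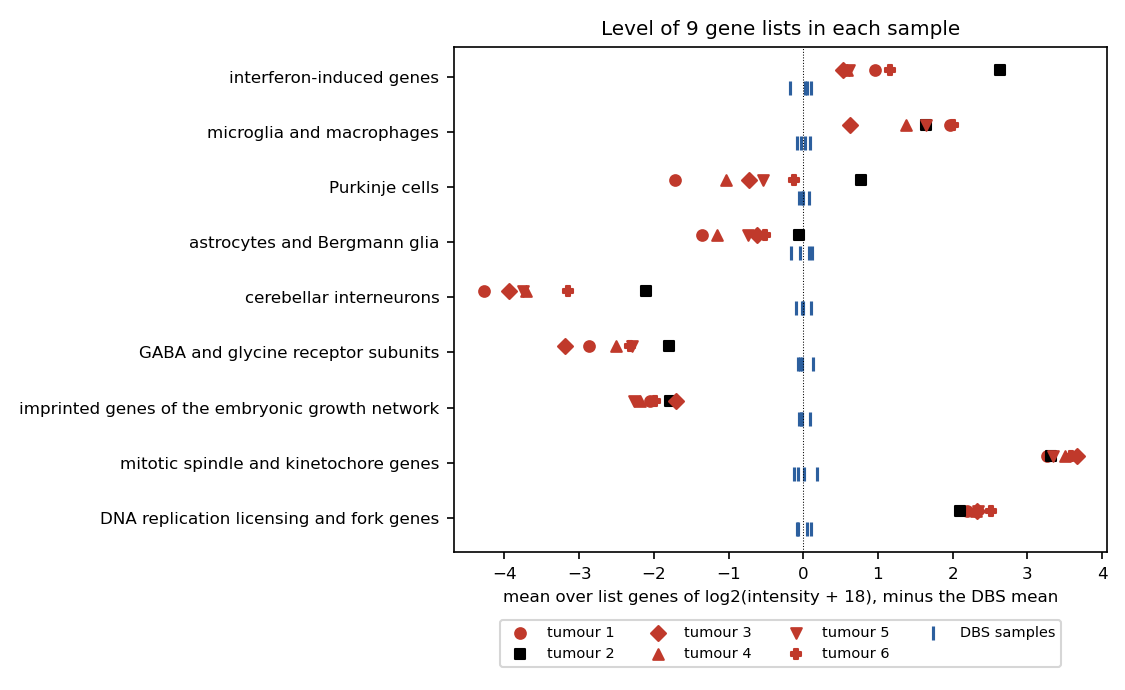
Mean of log2(intensity + 18) over the genes of 9 lists in each sample, minus the DBS mean (horizontal axis); each symbol is a tumour, tumour 2 in black, and blue ticks are the 4 DBS samples. Tumour 2 is highest for the interferon (2.64), Purkinje (0.78) and interneuron (-2.11) lists, while all 6 tumours sit close together for replication (2.10 to 2.51) and mitosis (3.26 to 3.67).

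Tumours differed from each other in how far they stood from DBS. Tumour 2 had the highest tumour value for 882 (34.4%) of the genes that fell, against 9.96% to 18.6% for each of the other 5. It had the lowest tumour value for 547 (28.9%) of the genes that rose, against 11.2% to 17.6%. For replication genes the tumours lay 2.10 to 2.51 above DBS and for mitosis genes 3.26 to 3.67. Without tumour 2 the mitosis count stayed at 58, the synaptic count at 27 falls and the imprinted count was 16.

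Several of the largest differences lay outside these groups. Prm1, the sperm nuclear protein, was 1139 to 3326 in tumours and at most 4.2 in DBS, and its probe sets differed in size, from 1.23 to 6.73. Tbata, a gene of thymus and testis, was 3138 to 4301 in tumours and 21.8 to 43.6 in DBS, a rise of 6.22. Mndal, an interferon-inducible nuclear protein, was 2982, 206.8, 1982, 2582, 4094 and 6022 in tumours and at most 25.5 in DBS, with the lowest value in the tumour where Ifit3 was highest. Its GNPC mean was 2185. Lockd, a noncoding RNA downstream of Cdkn1b, rose 32.9-fold, and Cog7, a Golgi tethering subunit, 32.2-fold, from 253.8 to 374.7 to 7136 to 12883.

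On the lower side, AW551984, an uncharacterised transcript, was 12532, 16199, 13505 and 13287 in DBS and 1.4 to 35.7 in tumours, a difference of -8.84, with every tumour value near background. The transmembrane protein Tmem130 fell by 6.88 and the zinc-finger protein Zcchc12 fell by 6.35. Zcchc12 was 95.2 to 150.3 in all 6 tumours and 10540 to 11976 in DBS. The synaptic organiser Cbln2 (-6.62), the vesicle-associated protein Lamp5 (-6.55) and the sodium-calcium exchanger Slc8a1 (-6.12) fell in the same range. For these 6 genes GNPC differed from DBS by -5.59 (AW551984) to -2.58 (Tmem130) on the log2 scale, with adjusted p of 0.00109 or less.

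RNA quality was compared through the ratio of 3′ to 5′ control probe sets. The mean log2 ratio of Gapdh and beta-actin was 1.39 ± 0.0986 (SD, n = 6) in tumours and 1.75 ± 0.497 (SD, n = 4) in DBS, a difference of -0.36 (exact two-sided permutation p = 0.0952 over 210 relabellings). Beta-actin alone gave -0.51 (exact permutation p = 0.0238) and Gapdh alone -0.20 (exact permutation p = 0.4). DBS samples spread from 1.23 to 2.43 and tumours from 1.33 to 1.59. Without DBS 1 the mean ratio differed by -0.53 (exact permutation p = 0.0119), and without tumour 1 by -0.40 (exact permutation p = 0.0476). The part of these ratios in the results was not tested.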

How the data were processed

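RNA of 6 Ptch1 medulloblastomas, 4 DBS and 3 GNPC samples was labelled from 100 ng of total RNA by 2 rounds of amplification, per the labels' protocols, and hybridised to 1 Affymetrix array per sample. The values deposited by the authors are linear intensities. The submitters' processing notes name MAS5, without its role or version, and other steps are not given in the sources used here. Trimming 2% at each end leaves every array with a mean intensity of 500. Detection calls were not used.

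Groups came from source names. Of 45101 probe sets 34945 have 1 gene symbol in the platform annotation. Probe sets were kept where 3 or more of the 13 arrays had them above the array median, then the brightest per gene, leaving 12270 of 18193 symbols. log2(intensity + 18), 18 being the 20th percentile of all values, was fitted with limma 3.58.1 in R 4.3.3 (lmFit with a mean per group over 13 samples, eBayes with intensity trend, Benjamini-Hochberg adjustment), checked on simulated data. Fitted folds are on that scale. With so few arrays per group their number limits the precision.

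Members and lists were chosen with earlier results of these data known. The rule for named genes took the 15 largest rises and falls with separated groups and a mean of at least 500 in the higher group, up to 3 called members per direction in each list, Ptch1, and members that did not pass where a sentence needed them. Outside it, B2m, Barhl1, C1qb, Calb1, Cdc20, Cdk1, Dcc, Hk1, Hmgcs1, Hoxa2, Isg20, Mcm6, Ndn, Prim1 and Ss18l1 were chosen after their values were seen. Promoters came from RefSeq (GRCm38.p6), matched by symbol. Alternatives covered the pseudocount, scaling, filter, probe set choice, samples, spread and weights.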

Additional observations from a re-analysis of the deposited data

Results flagged for a closer look

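Within the tumours or within DBS, 24 of 352 gene and group pairs had a lowest or highest value set apart from its neighbours by more than Dixon's 95% limit on the log2(intensity + 18) scale; chance gives about 1 in 20, or about 18. DBS 2 held 9 of the 24. There E2f1 (59.4), Dnmt3a (5375), Skor1 (9496), Smad4 (3048.3) and Wnt5a (452.5) were highest, and Cdh20 (74.5), Cenpa (131.7), Draxin (356.2) and the choroid plexus gene Ttr (606.2) were lowest. Actl6a was highest (706.8) and Exo1 (44.3) and Ror2 (88.6) lowest in DBS 1. Tfap2b was lowest in DBS 3 (2105.1), and Barhl1 (151.5) and Hey2 (282.1) were highest in DBS 4. Each of these genes except Ttr still had no overlap between tumours and DBS.

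Among the tumours, tumour 2 was highest for Ifit3 (3583.1) and Epha5 (156.4) and lowest for Eda2r (438) and Mndal (206.8). Tumour 1 was highest for Hoxa2 (827) and Crh (546.9), both genes that were high in DBS, and Hoxa2 there exceeded every DBS sample. Sox11 was lowest in tumour 4 (567.5), Stmn2 in tumour 3 (1242.6), and Mcm6 was highest in tumour 6 (10827).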

How the results depend on the processing

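The number of genes called ranged from 3980.0 without probe sets that may bind several transcripts to 4885 without the filter, from 1668 to 2230.0 higher and from 2279 to 2894 lower, and from 4395 to 4554 with each sample left out. Scaling to the same median moved the share of higher calls from 42.5% to 48.7%. Of 57 list counts of at least 5, 1354 of 1368 values under the alternatives stayed within 1.5 times. The exceptions were, without probe sets that may bind several transcripts, 7 falls in the insulin-like growth factor axis and 7 in glycolysis, 3 in choroid plexus, and 7, 9 and 2 rises for interferon, microglia and Bcl2 family genes. With the stricter filter falls were 6 for BMP, 4 for Sox, 3 each for boundary and ependymal genes and 2 for choroid plexus, since fewer genes were tested. With the mean of probe sets 5 differentiating granule genes fell and 3 Sox genes rose. With samples left out, choroid plexus falls ranged from 3 to 6. Smaller counts were less stable: of 51 counts from 1 to 4, 28 moved by over 1.5 times in at least 1 setting, in 104 of 1224 values. Trp53bp1 reversed to 0.56 with the mean of probe sets, whose own directions differ. Calb1 lost its call in 7 settings, Igf2 gained one in 2 and Isg20 in 7. The RNA ratio difference was -0.51 by beta-actin, and -0.53 to -0.13 with samples left out, passing without DBS 1 (-0.53, exact permutation p = 0.0119) or tumour 1 (-0.40, exact permutation p = 0.0476). The cause of these shifts was otherwise not tested. GNPC against DBS was not run in the fit of tumour and DBS samples alone. No paired analysis was possible because the labels give no replicate numbers.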

Other observations

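Further lists gave the following counts. Of 30 cytokine and secreted ligand or receptor genes 6 rose, 9 fell and 15 were not called. Of the 30, 5 exceeded their array's median only in tumours and 4 only in DBS. Cxcr4, the chemokine receptor that holds granule precursors at the cerebellar surface, was 93.7, 64.7, 63.1 and 77.1 in DBS and 845.4 to 1032 in tumours, 10.3-fold higher in all 6. Of 12 motor and sensory neuron genes 8 fell and 1 rose (median -2.70), and 4 of the 12 exceeded their array's median only in DBS and 2 only in tumours. Among 13 midbrain and hindbrain boundary genes 5 fell and 3 rose, and 4 of the 13 exceeded their array's median only in DBS and 2 only in tumours. Among 7 unipolar brush cell and cerebellar nuclear neuron factors 2 rose, 3 fell and 2 were not called. The largest fall was that of Meis2 (-7.29) and the largest rise that of Otx2 (3.22). The homeobox gene Irx3 fell from 585.1 to 831.5 in DBS to 71.3 to 152.4. Lhx2 rose from 107.8 to 165.8 to 282.3 to 417.9 although its GNPC mean was 49.1. Hmga2, an embryonic chromatin protein, fell by 1.74. Of 10 neural crest and Schwann cell markers 4 fell and 2 rose, of 9 muscle and cartilage markers 2 fell (4 without tumour 3 or DBS 2, 1 without tumour 5, tumour 6, DBS 3 or DBS 4) and 2 rose, and of 8 pericyte markers 2 fell and 6 were not called. Of 20 T, B and granulocyte markers 17 were on the array, and only 4 of these passed the filter on low values. Of 20 blood markers 15 were on the array, and 5 passed.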
